A study of Homo sapiens with 55 samples.

Results

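The 9 genes described here are CCL2, CCL20, CXCL8, CXCL1 and CXCL2, which encode chemokines, IL11, IL6 and LIF, which encode cytokines of the interleukin-6 family, and SOCS3, which encodes an inhibitor of signalling by that family. They were taken as all probes of the array whose annotated gene symbol is one of these names, which gave 11 probes of 48803 and 9 genes of 18852. Transcripts were measured on 55 Illumina HumanHT-12 v3 bead arrays of total RNA from cultured cells. SCL60 is a derivative of HEK293, a human embryonic kidney cell line, into which the rat receptor for gonadotropin-releasing hormone (GnRH) was stably transfected, at a high level. HEK293 is its parental line, in which the receptor is undetectable per the labels. SCL60 cells were given the GnRH receptor agonist triptorelin (100 nM) for 0.5, 1, 2, 8 or 24 h, or the vehicle, 20 percent propylene glycol, and were collected as controls at 0, 1, 8 or 24 h. HEK293 cells were given triptorelin for 1 or 24 h and were collected as controls at 0, 1 or 24 h. Each of these 14 groups had 4 arrays, except the SCL60 controls at 1 h, which had 3. Both lines were grown in serum on Matrigel, and the SCL60 medium alone held the selection drug G418, so the lines differ in more than the receptor. The receptor in SCL60 is a transgene in a kidney-derived line and not the receptor of a pituitary cell.

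Chemokines are small secreted proteins that draw leukocytes along a gradient by acting on G protein-coupled receptors. CCL2 recruits monocytes through the receptor CCR2, CCL20 recruits lymphocytes and dendritic cells through CCR6, and CXCL8 (interleukin-8), CXCL1 and CXCL2 recruit neutrophils through CXCR2. Cytokines of the interleukin-6 family bind receptor complexes that share the chain gp130, encoded by IL6ST, which activates JAK kinases and the transcription factor STAT3. SOCS3 is itself induced by STAT3, binds gp130 and JAK, and limits the signal. Many of these transcripts are short-lived and are induced within hours of an inflammatory or mitogenic stimulus. The triptorelin comparisons ask which transcripts change when the GnRH receptor is activated, and when, with HEK293 cells as the setting without the transgene.

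Signals below are background-corrected, normalised log2 values, and a probe counts as detected on an array at a detection p-value under 0.01. The lowest signal detected on an array lay between 5.32 and 6.17, so a signal below that is background. Array medians of the deposited signal ran from 44 to 75, and 11766 to 14763 probes were detected per array. Arrays were hybridised in 2 batches of 33 and 22, and differences within each batch stand beside the main ones. The probe for human GNRHR was detected on 0 of the 55 arrays, and it does not measure the rat transgene. In bulk RNA a different share of expressing cells and a different amount of transcript per cell cannot be told apart. Nothing in the labels says that replicates were separate cultures, so p-values measure the spread between these samples.

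Of the 9 genes, 5 were detected somewhere (CCL2, CXCL8, CCL20, IL11 and CXCL2) and 4 on no array (CXCL1, IL6, LIF and SOCS3). CCL2 was detected on all 20 SCL60 arrays given triptorelin and all 15 SCL60 control arrays, but on 3 of 20 HEK293 arrays. CXCL8 had 2 probes, of which ILMN_2184373 was detected on 40 arrays and ILMN_1666733 on 26. CCL20 was detected on 8 arrays, IL11 on 6 and CXCL2 on 2, and every one of these was an SCL60 array given triptorelin. The filter on dim probes, which asks for detection on 3 arrays, left 5 probes of 4 genes to test (CCL2, CXCL8, CCL20 and IL11). CCL20 and IL11 passed that filter through the triptorelin groups alone, so they could hardly pass it without differing. The plot of signals by array shows these 4 genes in the 14 groups.

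**Figure D1:**
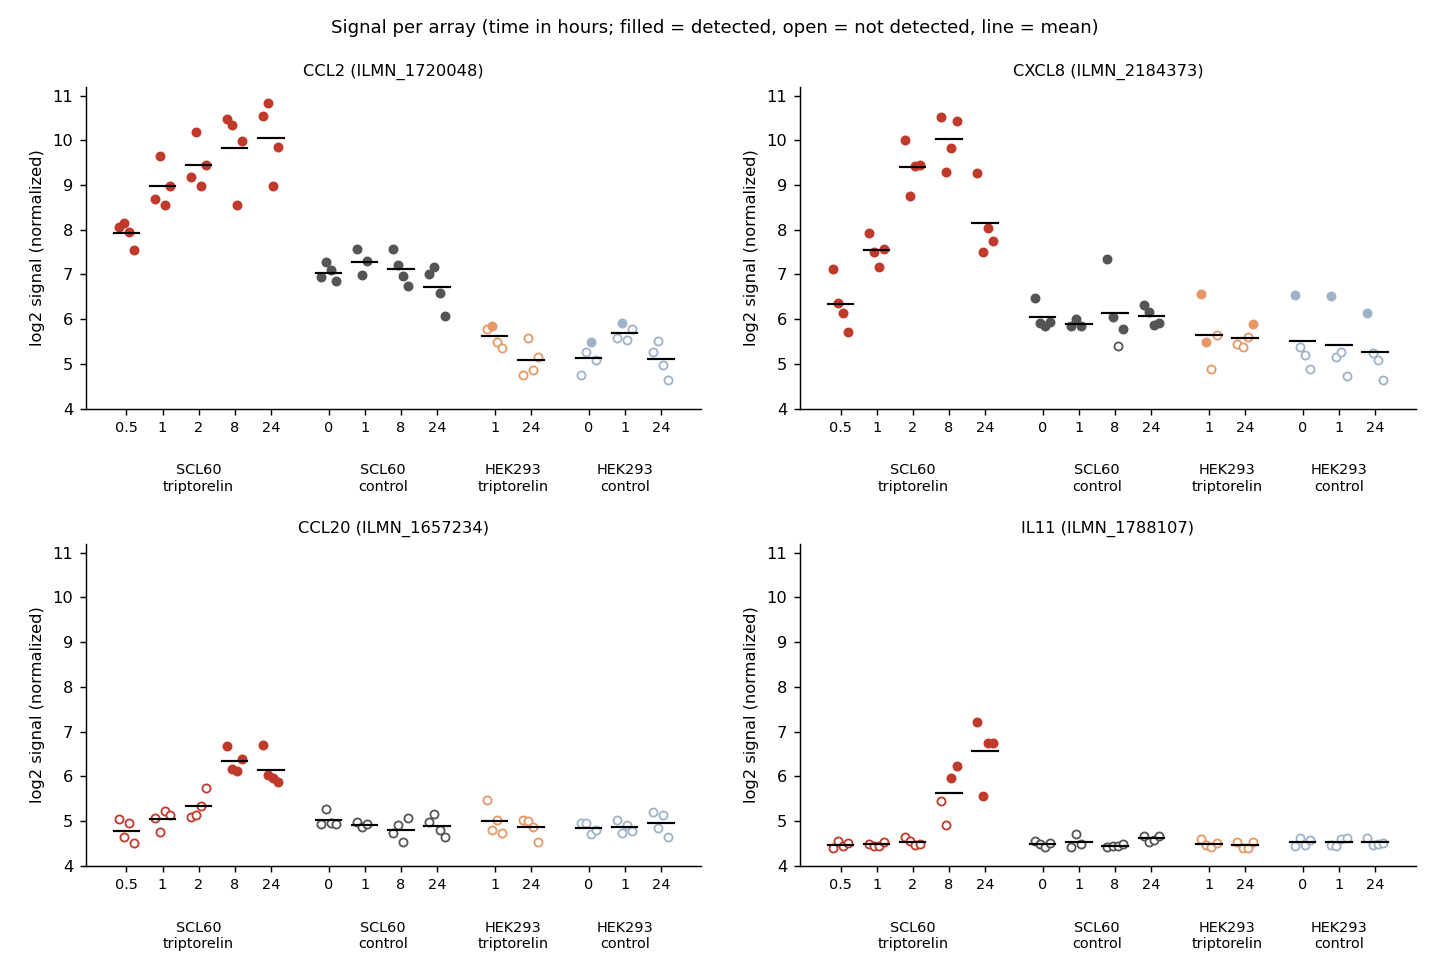
Normalised log2 signal of CCL2, CXCL8, CCL20 and IL11 on every array (points; filled where the probe was detected) with the group mean (bar), by line, treatment and time. CCL2 of SCL60 cells lies above that of HEK293 cells in every group, and CCL20 and IL11 leave the background in the SCL60 triptorelin groups at 8 and 24 h alone.

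The window around the transcription start, where factors induced or activated by receptor signalling commonly bind, is shown for 5 of the members: CXCL8, which was called from 1 h on, CCL20 and IL11, which were called at 8 and 24 h, CXCL2, which was detected at 2 h alone, and its undetected relative CXCL1. Windows of 300 bases (250 before and 50 from the start on) were available from RefSeq (GRCh38.p14) for 7 of the 9 genes, all but CCL2 and LIF. CXCL8 lies at chr4:73740319-73740618 (plus strand), CXCL1 at chr4:73869143-73869442 (plus), CXCL2 at chr4:74099146-74099445 (minus), IL11 at chr19:55370414-55370713 (minus) and CCL20 at chr2:227813592-227813891 (plus). Each is written 5′ to 3′ along the gene, with capitals where a searched motif matched on either strand.
CXCL8: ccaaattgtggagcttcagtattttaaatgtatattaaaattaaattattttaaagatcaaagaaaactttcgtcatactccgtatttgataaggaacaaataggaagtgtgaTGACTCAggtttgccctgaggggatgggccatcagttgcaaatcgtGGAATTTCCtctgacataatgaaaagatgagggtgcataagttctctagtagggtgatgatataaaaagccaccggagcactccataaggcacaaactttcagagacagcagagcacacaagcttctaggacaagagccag
CXCL1: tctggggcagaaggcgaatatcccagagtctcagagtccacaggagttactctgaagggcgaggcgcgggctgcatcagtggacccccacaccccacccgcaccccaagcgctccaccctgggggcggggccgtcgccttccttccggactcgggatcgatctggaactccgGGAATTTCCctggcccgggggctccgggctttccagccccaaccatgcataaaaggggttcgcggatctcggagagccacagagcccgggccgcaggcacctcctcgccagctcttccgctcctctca
CXCL2: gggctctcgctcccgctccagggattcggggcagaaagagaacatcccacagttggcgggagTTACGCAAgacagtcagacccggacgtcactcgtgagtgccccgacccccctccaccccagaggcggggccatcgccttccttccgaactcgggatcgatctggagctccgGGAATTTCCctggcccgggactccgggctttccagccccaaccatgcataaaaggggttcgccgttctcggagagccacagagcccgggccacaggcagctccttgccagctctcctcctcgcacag
IL11: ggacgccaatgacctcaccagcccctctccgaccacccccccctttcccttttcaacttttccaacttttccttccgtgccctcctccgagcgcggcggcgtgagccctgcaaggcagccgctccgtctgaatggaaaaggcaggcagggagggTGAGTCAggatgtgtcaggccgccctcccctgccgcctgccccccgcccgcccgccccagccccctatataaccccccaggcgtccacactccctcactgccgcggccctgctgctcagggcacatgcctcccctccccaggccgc
CCL20: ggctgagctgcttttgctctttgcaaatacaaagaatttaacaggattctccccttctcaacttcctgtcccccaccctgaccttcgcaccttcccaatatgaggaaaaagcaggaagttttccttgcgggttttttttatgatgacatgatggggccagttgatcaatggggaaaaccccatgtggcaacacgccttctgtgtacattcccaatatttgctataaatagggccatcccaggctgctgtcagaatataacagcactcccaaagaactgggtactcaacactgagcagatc

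The motifs searched were GGANTTTCC for NF-kappaB, TGANTCA for AP-1, TGACGTCA for the cAMP response element, TTGCNNAA for C/EBP and TTCNNNGAA for STAT, each on both strands. The NF-kappaB letters occurred in CXCL8 (GGAATTTCC from -91 to -83), CXCL1 (-78 to -70), CXCL2 (-77 to -69) and IL6 (GGATTTTCC from -72 to -64), and in 1.64 percent of 35116 RefSeq promoter windows. The AP-1 letters occurred in CXCL8 (TGACTCA from -137 to -131) and in IL11 (TGAGTCA from -96 to -90), and in 7.71 percent of all windows. The C/EBP letters occurred in CXCL2 (-188 to -181) and IL6 (-155 to -148), and in 10.5 percent of windows. The cAMP response element and STAT letters occurred in none of the member windows and in 1.85 and 7.66 percent of all windows. CCL20 and both SOCS3 windows held none of the motifs. No matches overlapped, and a match of letters is a description and not a measured binding site.

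CCL2, the monocyte chemokine, was detected in resting SCL60 cells and was higher after triptorelin from 1 h on. At 0.5 h its signal was 8.06, 8.14, 7.94 and 7.55 on the 4 SCL60 triptorelin arrays, against 7.57, 6.98 and 7.30 on the 3 SCL60 control arrays of 1 h. The groups overlapped by the lowest triptorelin array, and the log2 difference of 0.64 (95 percent interval -0.03 to 1.32) did not pass the test (limma adjusted p = 1.00). At 1 h triptorelin arrays read 8.69, 9.65, 8.56 and 8.98, above every one of the same controls, and CCL2 rose 3.22-fold (log2 1.69 with an SE of 0.34, limma adjusted p = 0.0029, and 1.88 and 1.64 within batches 1 and 2). At 2 h the arrays read 9.19, 10.19, 8.97 and 9.44, again above those controls, a 4.48-fold rise (limma adjusted p = 1.88e-05, and 1.77 and 2.71 on the log2 scale within the batches). The 0.5, 1 and 2 h comparisons share the 1 h control arrays, since there are no controls of 0.5 or 2 h, and 1 of these 3 control arrays lies in batch 2. Within batch 1 alone, CCL2 passed at neither 1 nor 2 h (limma adjusted p = 0.118 and 0.0725). For batch 2, with 1 control, only the log2 differences are given.

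At 8 h CCL2 read 10.48, 10.33, 8.55 and 9.99 with triptorelin, against 7.58, 7.21, 6.95 and 6.74 in SCL60 controls of 8 h. Replicate 3 of the triptorelin group was the lowest, yet it too exceeded all controls, and the rise was 6.57-fold (log2 2.72 with an SE of 0.31, limma adjusted p = 1.9e-09, and 2.54 and 3.32 within the batches). At 24 h the arrays read 10.54, 10.83, 8.98 and 9.85 with triptorelin, against 7.00, 7.17, 6.59 and 6.08 in controls. The groups stood apart, by 10.1-fold (log2 difference 3.34, SE 0.31, 95 percent interval 2.71 to 3.97, limma adjusted p = 8.85e-12, and 3.27 and 3.54 within the batches). With all arrays, CCL2 was thus called at each of 1, 2, 8 and 24 h. In order of group means, SCL60 triptorelin at 24, 8, 2 and 1 h came first, with overlapping ranges between neighbours, then triptorelin at 0.5 h, apart from the 1 h group, then the SCL60 controls of all times, and last, apart from them, the HEK293 groups. The difference at 8 h exceeded that at 1 h by 1.03, and that at 24 h exceeded that at 8 h by 0.62, and neither of these passed (limma adjusted p = 0.202 and 0.547). Without triptorelin replicate 3 at 8 h, the first of them was 1.46 and passed (adjusted p = 0.0334, with 0.0463 with the replicate number as a block).

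CXCL8, the neutrophil chemokine interleukin-8, was near background in controls and had its highest group mean at 8 h of triptorelin. Its 2 probes gave group means that followed each other (Pearson r = 0.996 over 14 groups), and values here are of the probe detected on more arrays, ILMN_2184373, unless stated. At 0.5 h it read 7.13, 6.35, 6.13 and 5.70 with triptorelin, against 5.85, 6.00 and 5.84 in the 1 h SCL60 controls, groups that overlapped (log2 difference 0.43, limma adjusted p = 1.00). At 1 h it read 7.93, 7.51, 7.16 and 7.56 with triptorelin, above all of those controls, a 3.12-fold rise (log2 1.64 with an SE of 0.41, limma adjusted p = 0.0456, and 1.69 and 1.54 within the batches). The other probe, ILMN_1666733, was detected on all 4 triptorelin arrays of 1 h and on 0 of 3 controls, and rose at least 2.3-fold (limma adjusted p = 0.00903). These 1 h calls rest on few arrays. For ILMN_2184373 the adjusted p was between 0.103 and 0.273 without any one of triptorelin replicates 1, 2 and 4 or of control replicates 2, 3 and 4 (0.000748 to 0.972 over all alternatives, 0.0898 with every probe tested). For ILMN_1666733 it was 0.0551 without triptorelin replicate 1, 0.0657 without control replicate 3 and 0.0723 without control replicate 4 (0.000516 to 0.364 over all alternatives). The count of member probes called at 1 h was then 1 in place of 3.

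At 2 h CXCL8 read 10.00, 8.75, 9.41 and 9.45 with triptorelin, 11.4-fold above the same 1 h controls (log2 3.51 with an SE of 0.41, limma adjusted p = 2.44e-08, and 3.59 and 3.37 within the batches). Triptorelin at 2 h also exceeded triptorelin at 1 h, a comparison of groups that share no controls, by 3.64-fold (limma adjusted p = 0.00321) and, on ILMN_1666733, by 3.4-fold (limma adjusted p = 0.00026), where 0.381 percent of all probes were called higher. At 8 h it read 10.52, 9.29, 9.83 and 10.43 with triptorelin, against 7.34, 6.05, 5.40 and 5.78 in 8 h controls. Control replicate 1 was the brightest of its group and still lay below every triptorelin array, and the rise was 14.7-fold (log2 3.88 with an SE of 0.38, limma adjusted p = 2.63e-11, and 4.12 and 3.96 within the batches). At 24 h it read 9.28, 7.50, 8.05 and 7.76 with triptorelin, against 6.32, 6.16, 5.86 and 5.92 in controls, a 4.23-fold rise (log2 2.08 with an SE of 0.38, limma adjusted p = 0.000107, and 1.79 and 2.96 within the batches). On ILMN_1666733 the rise was at least 7.8-fold at 2 h, 11.5-fold at 8 h, where 2 of 4 controls were detected, and 3.3-fold at 24 h, where 1 of 4 was (limma adjusted p = 3.16e-10, 4.82e-13 and 6.49e-05). The log2 difference at 24 h fell short of that at 8 h, with a value of -1.80 for 24 h less 8 h on both probes, which passed for ILMN_1666733 (limma adjusted p = 0.0108) and not for ILMN_2184373 (0.0582). The second passed as well with the replicate number as a block (adjusted p = 0.000487, with a range of 0.000487 to 0.788 over all alternatives). The difference at 8 h was larger than that at 1 h by 2.00 on ILMN_1666733 and 2.23 on ILMN_2184373 (limma adjusted p = 0.00302 and 0.00921). Of the 5 member probes, 4 had a larger difference at 8 h than at 1 h that passed, where 2.40 percent of all probes did. Of these 4, CCL20 and IL11 were tested only because they were detected at 8 and 24 h of triptorelin, so their part of the count follows from the filter. Of the 5, 1 had a smaller one at 24 h than at 8 h, where 1.21 percent did.

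Beside the background of all 16016 tested probes, 0 of the 5 tested member probes were called at 0.5 h, where 0.0999 percent of probes were called higher. None of the 5 had an unadjusted limma p under 0.05 there. At 1 h and at 2 h, 3 of 5 member probes were called higher (CCL2 and both CXCL8 probes), where 0.500 and 0.968 percent of all probes were. At 8 h and at 24 h all 5 were called higher, where 10.8 and 4.36 percent of all probes were, and every member range stood apart from that of its controls. Of those 5 probes, CCL20 and IL11 entered the test through detection in these same triptorelin groups, so their calls follow from the filter. The other 3 are of CCL2 and CXCL8 alone, and the members were chosen with earlier results of these data known. The shares of all probes are therefore given as a description and do not test the members. The median log2 difference over the 4 tested genes was 0.89 at 1 h, 1.28 at 2 h, 2.12 at 8 h and 2.02 at 24 h, while the median over all tested probes was -0.01 at 1 h and 24 h. These counts cover only the tested probes, not the 6 that stayed below the filter.

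**Figure D2:**
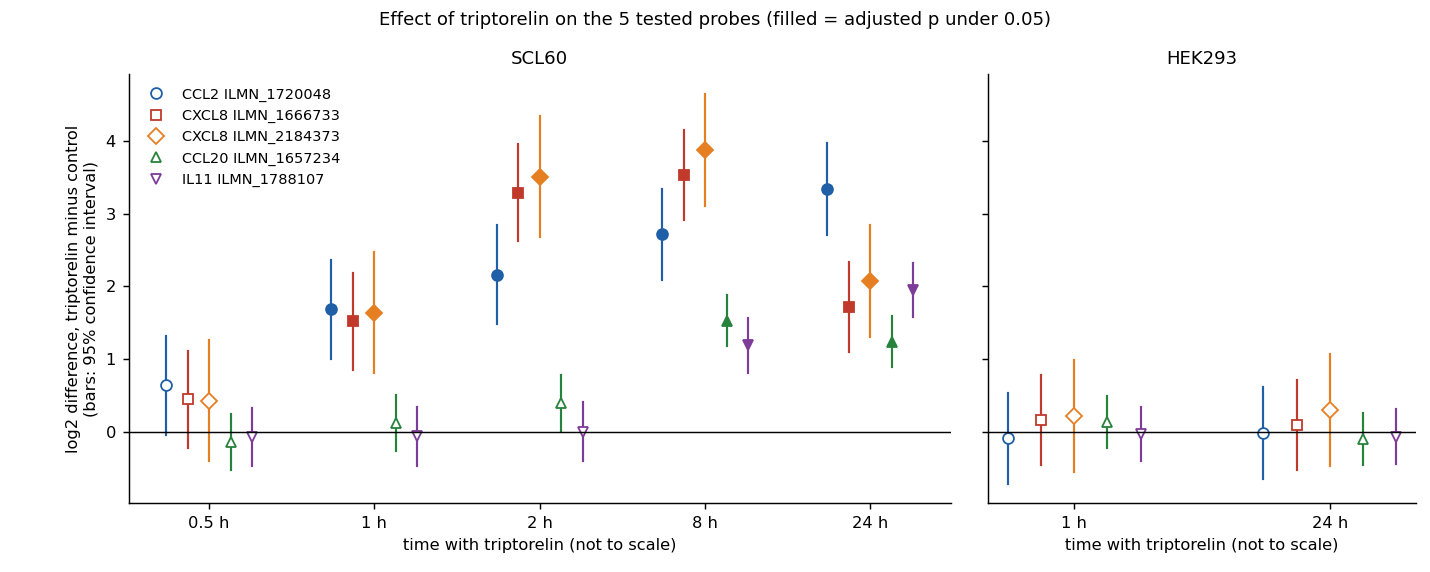
Log2 difference between SCL60 triptorelin and SCL60 control arrays at 0.5, 1, 2, 8 and 24 h, and between HEK293 triptorelin and HEK293 control arrays at 1 and 24 h, for the 5 tested member probes (points; bars are 95 percent intervals of the limma fit; the time axis is not to scale). CXCL8 has its largest difference at 8 h (3.88), CCL2 and IL11 at 24 h (3.34 and 1.95), and all intervals for HEK293 include 0.

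CCL20, which recruits cells that carry CCR6, was undetected in every control group and appeared on the arrays at 8 h. With triptorelin it read 5.10, 5.14, 5.34 and 5.73 at 2 h, none of them detected, above the 4.97, 4.86 and 4.93 of the 1 h SCL60 controls. The groups did not overlap, but the log2 difference of 0.40 did not pass (limma adjusted p = 0.422). At 8 h it read 6.68, 6.16, 6.13 and 6.38 with triptorelin, all detected, against 4.72, 4.91, 4.54 and 5.06 in controls, none detected. That is a rise of at least 1.63-fold, the bound that the detection limit allows (fitted log2 difference 1.53, SE 0.18, limma adjusted p = 2.02e-09, and 1.50 and 1.79 within the batches). At 24 h it read 6.71, 6.03, 5.97 and 5.87 with triptorelin, all detected, against 4.98, 5.16, 4.81 and 4.64 in controls, a rise of at least 1.39-fold (fitted log2 difference 1.24, limma adjusted p = 7.26e-07, and 1.08 and 1.72 within the batches). The difference at 8 h was larger than that at 1 h by 1.40 (limma adjusted p = 0.000221), while those at 24 and 8 h differed by -0.29, which did not pass.

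CXCL2, a neutrophil chemokine, was detected on 2 arrays, both of SCL60 cells given triptorelin for 2 h, too few to pass the filter on dim probes. It read 6.24, 5.59, 5.60 and 4.80 at 2 h with triptorelin, against 4.64, 4.55 and 4.37 in the 1 h controls. Every triptorelin array lay above the controls, those of replicates 1 and 2 as detected values. In the fit to every probe on the array (48803) its log2 difference at 2 h was 1.04 (SE 0.16, limma adjusted p = 4.85e-05). At 1 h it read 5.53, 5.16, 5.26 and 4.58 with triptorelin, all undetected, and its difference of 0.61 did not pass in that fit (limma adjusted p = 0.219). At 8 h it read 5.25, 4.63, 4.64 and 4.53 with triptorelin, of which replicate 1 stood above the rest, and its difference of 0.23 did not pass. CXCL1, a close relative of CXCL2, read 4.88, 4.88, 4.62 and 4.62 at 2 h with triptorelin, against 4.44, 4.57 and 4.47 in the 1 h controls. Those 2 groups did not overlap, but all values were undetected and the difference of 0.25 did not pass (limma adjusted p = 0.417 over all probes). In the other groups the mean of CXCL1 was 4.48 to 4.63.

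**Figure D3:**
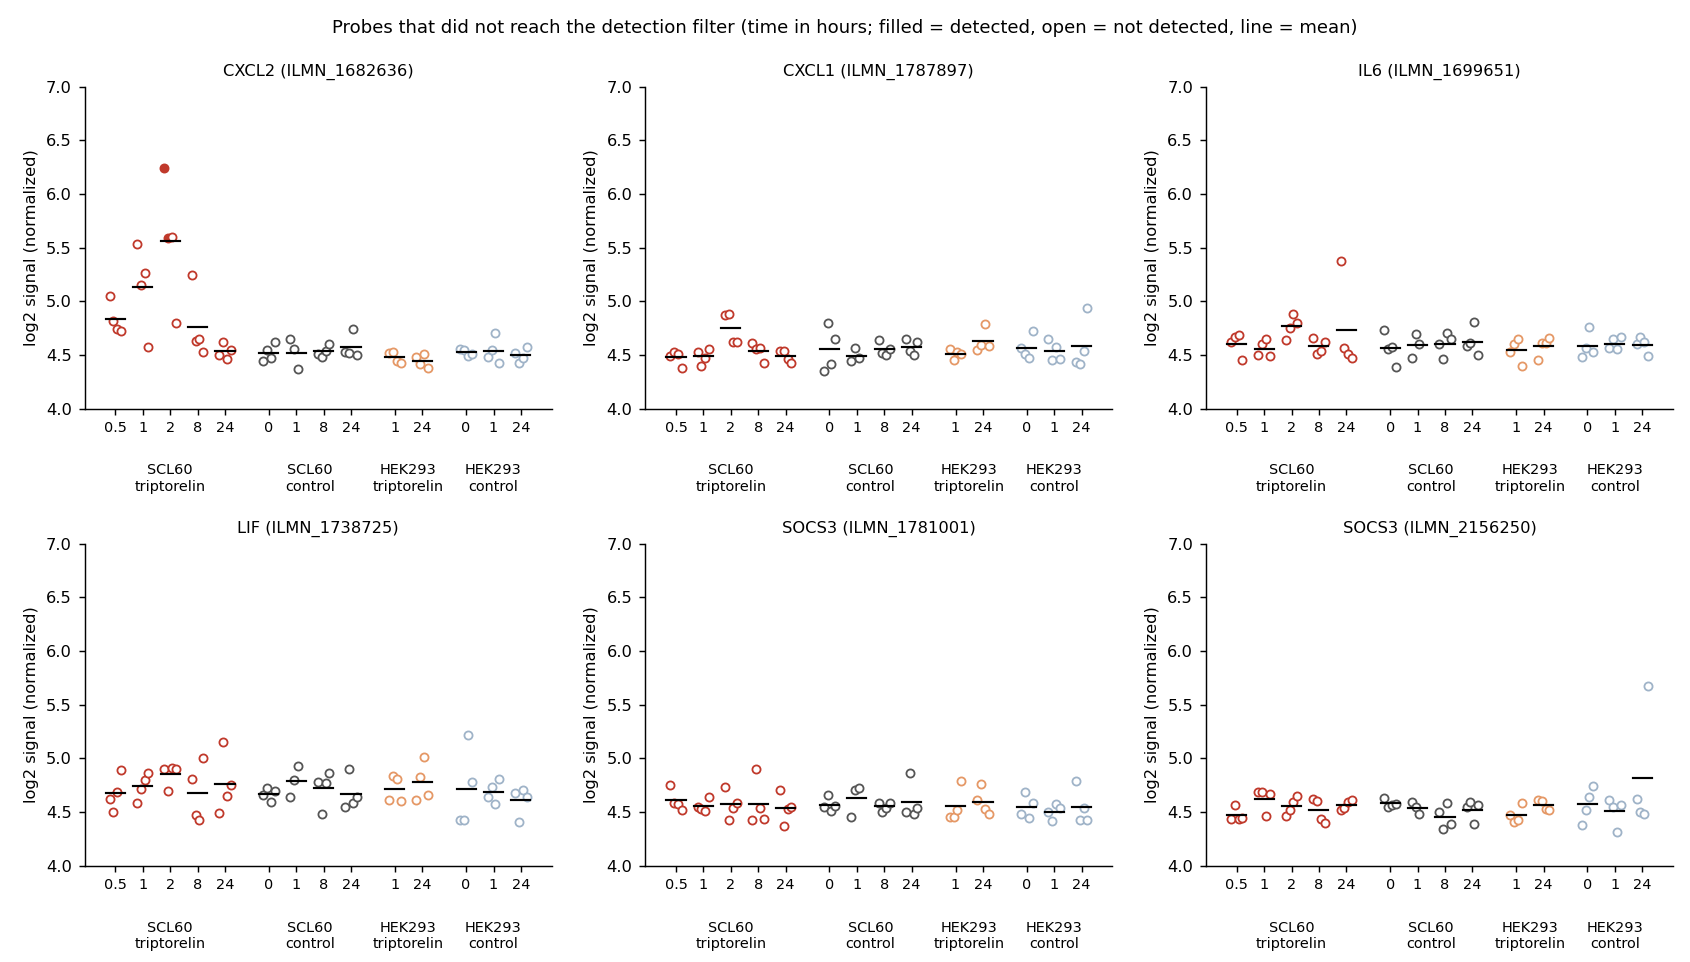
Normalised log2 signal on every array of the members that were detected on 0 to 2 arrays: CXCL1, CXCL2, IL6, LIF and the 2 probes of SOCS3 (points; filled where detected; bars are group means). CXCL2 at 2 h of triptorelin in SCL60 cells holds the only 2 detected values, 6.24 and 5.59.

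IL11, a cytokine of the interleukin-6 family, was at background in every group but the SCL60 triptorelin groups of 8 and 24 h. At 8 h it read 5.44, 4.91, 5.97 and 6.24 with triptorelin, of which replicates 3 and 4 were detected, against 4.41, 4.45, 4.45 and 4.48 in controls. The groups did not overlap, and the fitted log2 difference was 1.19 (SE 0.19, limma adjusted p = 2.5e-06, and 1.26 and 0.99 within the batches). At 24 h it read 7.22, 5.57, 6.74 and 6.75 with triptorelin, all detected, against 4.66, 4.54, 4.58 and 4.67 in controls, none detected. The rise at 24 h was at least 1.87-fold (fitted log2 difference 1.95, SE 0.19, limma adjusted p = 1.63e-11, and 1.75 and 2.56 within the batches). With triptorelin for 0.5, 1 and 2 h the mean of IL11 was 4.47, 4.48 and 4.54, with no array detected. The 24 h difference exceeded the 8 h one by 0.76 without passing (limma adjusted p = 0.111). Without triptorelin replicate 2 of 24 h it was 1.09 (adjusted p = 0.00143), and without triptorelin replicate 4 of 8 h it was 0.96 (0.0226).

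IL6, the founding cytokine of the family, was detected on 0 of 55 arrays. Its group means ran from 4.54 to 4.77, the highest in SCL60 cells given triptorelin for 2 h. LIF, which signals through the LIF receptor and gp130, was likewise detected on 0 arrays, with group means from 4.61 to 4.86. SOCS3, the feedback inhibitor, had 2 probes with group means of 4.51 to 4.63 and 4.45 to 4.82, and neither was detected on any array. Levels of these genes below the detection limit could not be seen, so a change there was not detectable. In the fit to every probe, none of IL6, LIF or SOCS3 passed in any of the 5 SCL60 triptorelin comparisons. IL6 read 5.37 on SCL60 triptorelin replicate 1 of 24 h and SOCS3 5.67 on HEK293 control replicate 4 of 24 h, both undetected as well.

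HEK293 cells given triptorelin showed no called change in any member. CCL2 read 5.79, 5.84, 5.49 and 5.35 in HEK293 cells at 1 h of triptorelin, against 5.57, 5.92, 5.53 and 5.78 in HEK293 controls. The groups overlapped, with 1 detected array in each, and the log2 difference was -0.08 (95 percent interval -0.71 to 0.54). At 24 h CCL2 read 4.74, 5.58, 4.87 and 5.16 with triptorelin, against 5.26, 5.52, 4.97 and 4.65 in controls, a difference of -0.01 (-0.64 to 0.62). CXCL8 on ILMN_2184373 differed by 0.23 at 1 h (-0.54 to 1.00) and by 0.30 at 24 h (-0.46 to 1.07), with overlapping groups. Replicate 1 of HEK293 read high on this probe, at 6.57 with triptorelin for 1 h, against 6.52 in its 1 h control, and at 6.55 and 6.13 in the controls of 0 and 24 h, all detected, while the other control replicates of those times were undetected. At each time 0 of 5 member probes passed, and none had an unadjusted limma p under 0.05. Of all tested probes, 0 percent were called in either HEK293 comparison, with 338 and 357 probes at an unadjusted limma p under 0.05.

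Whether the response differed between the lines was tested as the SCL60 difference minus the HEK293 difference. At 1 h this was 1.77 for CCL2 and 1.36 and 1.41 for the 2 CXCL8 probes, and none of the 5 probes passed (limma adjusted p = 0.125, 0.793 and 1.00), where 0.237 percent of all probes were called higher. The CCL2 value passed in a fit with the replicate number as a block (adjusted p = 0.00512, with a range of 0.00512 to 1 over all alternatives). At 24 h, 4 of 5 member probes passed, where 1.80 percent of all probes were called higher. Of these 4, CCL20 and IL11 were tested only because they were detected in SCL60 cells at 8 and 24 h of triptorelin. Their part of the count therefore follows from the filter. The difference of differences was 3.35 for CCL2 (limma adjusted p = 3.6e-07), 2.01 for IL11 (2.95e-07), 1.34 for CCL20 (0.000334) and 1.63 for CXCL8 on ILMN_1666733 (0.0217). On ILMN_2184373 it was 1.78 (limma adjusted p = 0.0527, or 0.000394 with the replicate block, with a range of 0.000394 to 0.4 over all alternatives). The call on ILMN_1666733 was lost without SCL60 triptorelin replicate 1 of 24 h (adjusted p = 0.101) and without HEK293 triptorelin replicate 1 of 24 h (0.0673).

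The lines also differed before any agonist, with a called difference for CCL2. At 0 h it read 6.94, 7.28, 7.09 and 6.85 in SCL60 controls, against 4.75, 5.26, 5.48 and 5.08 in HEK293 controls. The groups did not overlap, and CCL2 was 3.73-fold higher in SCL60 (log2 1.90 with an SE of 0.31, limma adjusted p = 6.72e-06, and 1.70 and 2.36 within the batches), where 10.4 percent of all probes were called higher in SCL60. The same held among controls of 1 h (log2 difference 1.58, 3-fold, limma adjusted p = 0.000509) and of 24 h (1.61, at least 1.91-fold, 0.00011), where 8.53 and 9.63 percent of all probes were called higher. CXCL8 on ILMN_2184373 had differences of 0.54, 0.48 and 0.79 at these times, none of which passed (limma adjusted p = 0.375, 0.505 and 0.155). The 1 h value of CXCL8 was 0.71 and passed with the replicate number as a block (adjusted p = 0.0444). Its 24 h value passed with that block (0.79, adjusted p = 0.0124), with the chip as a block (0.84, 0.0389) and within batch 1 (1.11, 0.00716). CCL20 and IL11 were undetected in all controls of both lines.

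Vehicle alone did not move the members over time to a degree that passed. CCL2 in SCL60 controls differed from the 0 h group by 0.24 at 1 h, 0.08 at 8 h and -0.33 at 24 h, where 0.0187, 0.0125 and 0 percent of all probes were called in either direction. In HEK293 controls CCL2 at 1 h lay above that at 0 h by 0.56 (95 percent interval -0.07 to 1.18), with ranges that did not overlap, and this did not pass (limma adjusted p = 0.997), where 0.00624 percent of all probes were called. At 24 h the HEK293 controls differed from those of 0 h by -0.04, where 0 percent were called. Between 0.5 and 1 h of triptorelin in SCL60 cells, CCL2 differed by 1.04 and CXCL8 by 1.07 and 1.21 on its 2 probes, all with separate ranges. None of the 3 passed (limma adjusted p = 0.264, 0.217 and 0.408), where 0.306 percent of all probes were called higher. All 3 passed with the replicate number as a block (adjusted p = 0.0182, 0.00732 and 0.00278).

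CCL2 and CXCL8 each sit among relatives on their chromosomes, and only some genes of these clusters were detected. On chromosome 17 the order is CCL2, CCL7, CCL11, CCL8, CCL13 and CCL1, of which 5 of 6 genes had a probe and 3 were detected and tested (CCL2, CCL7 and CCL8). CCL7, another monocyte chemokine, averaged 7.46 at 8 h of triptorelin and 5.69 at 24 h, detected on 4 and 3 arrays, and was undetected in every other group. Its log2 difference was 2.96 at 8 h and 1.23 at 24 h (limma adjusted p = 1.15e-13 and 0.000446), and the second was smaller by 1.73 (limma adjusted p = 0.00172), whereas the 24 h difference of CCL2 exceeded its 8 h one by 0.62 without passing. The time courses of the 2 genes were not compared by a test. CCL8, also a monocyte chemokine, was undetected in all controls and had differences of 0.79 at 1 h, 1.75 at 2 h, 2.30 at 8 h and 2.58 at 24 h. All but the first passed (limma adjusted p = 0.332 at 1 h and at most 2.46e-06 later). CCL7 and CCL8 passed the filter on dim probes through triptorelin arrays alone, so they could hardly pass it without differing. CCL2, CCL7 and CCL8 are alike in sequence, and cross-hybridisation between them was not tested. On chromosome 4, from CXCL8 to CXCL2, 9 of 9 genes had a probe, 3 were detected (CXCL8, CXCL6 and CXCL2) and 2 were tested. CXCL6, a neutrophil chemokine next to CXCL8, differed by 0.62 at 24 h (limma adjusted p = 0.0064) and by 0.41 at 2 h and 0.13 at 8 h, which did not pass. It was detected on 3 arrays, all of SCL60 cells given triptorelin (1 at 2 h and 2 at 24 h). Its call therefore follows in part from the filter on dim probes.

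**Figure D4:**
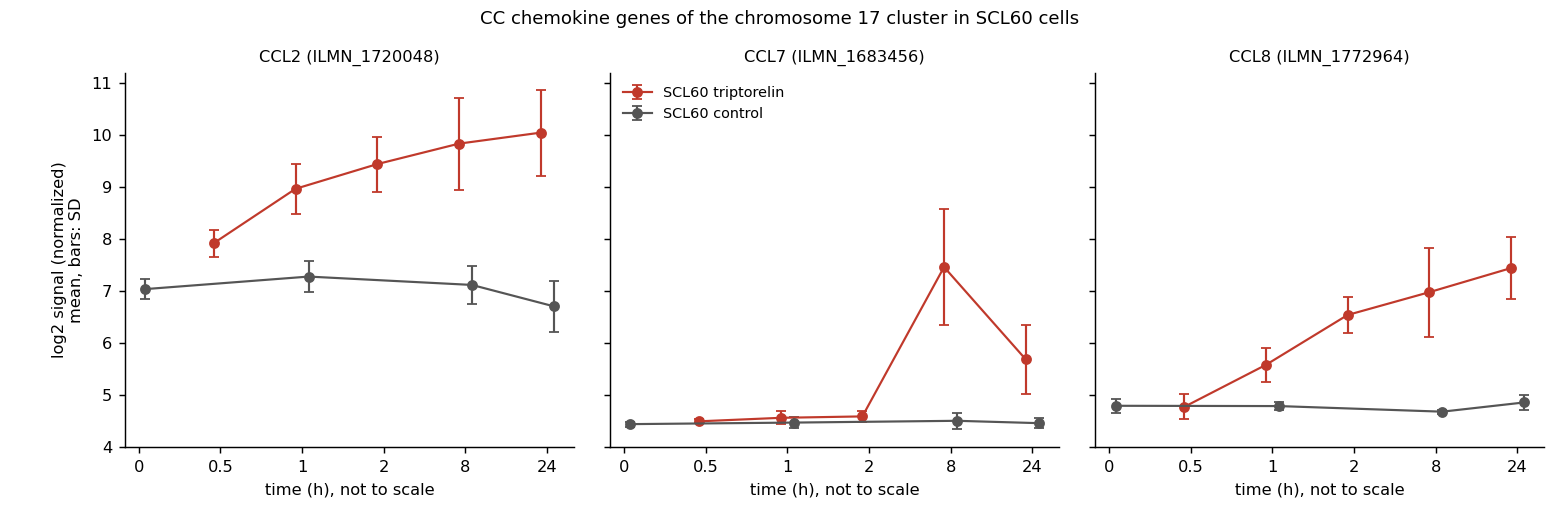
Group means of the normalised log2 signal (points; bars are the SD) of CCL2, CCL7 and CCL8, neighbours on chromosome 17, in SCL60 cells with triptorelin and in controls over time (the time axis is not to scale). CCL7 is at background until 2 h, has its highest mean at 8 h (7.46) and is lower at 24 h (5.69), while CCL2 and CCL8 have their highest mean at 24 h.

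Receptors and relatives were mostly below detection. Of 20 chemokine receptor genes with a probe, 17 were detected on no array, among them CCR2 (8 probes), CXCR1 and CXCR2. CXCR4, the receptor of CXCL12, was detected on 55 arrays on its brightest probe. CCR6, the receptor of CCL20, had 1 probe at 12.33 to 13.72 on all 55 arrays while its other probes, ILMN_1690907 and ILMN_1759635, were detected on 0, so its level cannot be stated from these arrays. None of the 2 tested receptor genes was called in the SCL60 triptorelin comparisons at 1, 2, 8 and 24 h. Of 20 further CC chemokines with a probe, 4 were tested, and 0, 1, 2 and 3 were called higher at 1, 2, 8 and 24 h, CCL26 at 24 h among them (log2 difference 1.64). Of all tested probes, 0.500, 0.968, 10.8 and 4.36 percent were called higher at those times. CCL7, CCL8 and CCL26 were detected on SCL60 triptorelin arrays alone, so they entered the test through groups where they were higher. Their calls therefore follow in part from the filter. Of 16 further chemokines of the CXC, CX3C and XC classes, 3 were tested and 1 was called, CXCL6 at 24 h. CXCL6 too was detected on SCL60 triptorelin arrays alone, so its call follows in part from the filter. All 6 further ligands of the interleukin-6 family with a probe were undetected. The shared receptor chain IL6ST was detected on 55 arrays on its probe ILMN_1849013, which rose at 8 h (log2 difference 0.81, limma adjusted p = 0.00186). Its other probes, ILMN_1746604 and ILMN_1797861, were detected on 0 and 1 arrays, so the rise rests on a single probe. IL27RA, the receptor chain for interleukin-27, was detected on 55 arrays and rose at 24 h (1.00, 0.00177), while LIFR was detected on 13 arrays and IL6R on 1. The median over the 3 tested receptor chains was 0.46 at 8 h and 0.49 at 24 h.

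Downstream of these cytokines, 11 genes of JAK and STAT signalling were tested, and 0 were called at 1 and 2 h. At 8 h 1 rose and 1 fell, and at 24 h 1 rose, with list medians of 0.09 and -0.21. In either direction, 23.2 and 9.50 percent of all probes were called at 8 and 24 h. Of 16 tested STAT3 target genes, 3, 2, 5 and 2 were called higher at 1, 2, 8 and 24 h (0.500, 0.968, 10.8 and 4.36 percent of all probes) and 1 lower, at 24 h (MYC, log2 difference -0.49). JUNB, counted in that list and in the AP-1 list as well, was the member with the largest difference there, 3.05 at 1 h. Of the 3 tested relatives of SOCS3, SOCS4 rose by 0.69 and SOCS2 fell by 0.66 on the log2 scale at 8 h (limma adjusted p = 0.00373 and 0.0188), and none was called at 1, 2 or 24 h.

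Of 21 tested NF-kappaB subunits and regulators, 1, 3, 9 and 1 were called higher at 1, 2, 8 and 24 h, and 3 lower at 8 h. They included NFKBIZ, a nuclear co-regulator, at 1 h (log2 difference 1.34), MAP3K8, a kinase upstream of the pathway, at 2 h (1.72), and the subunit RELB at 2 and 8 h (1.13 and 1.44). The list median was 0.05, 0.35, 0.34 and 0.17 at those times. Of 19 tested AP-1, ATF and C/EBP factors, 5, 5, 9 and 11 were called higher, with 1 lower at 2 h, and medians of 0.06, 0.29, 0.56 and 0.79. FOSB, an AP-1 subunit, differed by 6.22 at 1 h. Of 13 tested factors of AU-rich mRNA decay, 3, 1, 6 and 1 were called higher. ZFP36, which binds AU-rich elements of cytokine transcripts and speeds their decay, was called at each time, by 1.76, 1.47, 2.41 and 1.42. Of 6 further tested inflammatory mediators, 1, 1, 3 and 2 were called higher, among them PTGS2, the inducible cyclooxygenase, by 3.75, 3.77, 4.59 and 2.82. The other tested probe of PTGS2 had smaller differences of 2.84, 2.84, 3.23 and 1.27. The shares of all tested probes called higher at 1, 2, 8 and 24 h were 0.500, 0.968, 10.8 and 4.36 percent. In either direction they were 0.500, 1.32, 23.2 and 9.50 percent.

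Markers of other cells bear on transcripts that leukocytes also make. Of 9 blood cell markers with a probe, 6 were detected on no array (PTPRC, LYZ, CSF1R, ITGAM, CD3E and CD79A). CD68 was detected on 55 arrays, CD14 on 39 and FCGR3A on 1. The summed linear signal of the list was 391 to 471 at 8 h of triptorelin in SCL60, against 325 to 368 in its controls, and 428 to 517 at 24 h, against 316 to 343. On probe ILMN_1714861 CD68 rose by 0.67 at 8 h and 1.24 at 24 h on the log2 scale, while its other tested probe had 0.12 and 0.11, and CD14 by 0.51 at 8 h. Their part in the changes of the members was not tested. Of 7 fibroblast markers 6, and of 6 endothelial markers 5, were detected on no array, and 5 of 6 genes that mark the HEK293 line were detected on all arrays. The remaining line gene, PAX2, was detected on 0 arrays. The summed signal of these line genes was 7347 to 10723 at 8 h of triptorelin in SCL60, against 4763 to 6649 in its controls, and 5017 to 7450 at 24 h, against 6393 to 7190. The neurofilament genes NEFM and INA rose by 1.76 and 1.14 at 8 h, INA rose by 0.75 at 24 h, and the intermediate filament gene VIM fell by 0.51 at 24 h on the log2 scale. In the controls of 0 h that sum was 6509 to 7414 in SCL60, against 13650 to 21631 in HEK293. The genes of the list did not all go this way. On the log2 scale NEFM averaged 10.62 in SCL60 against 13.55 in HEK293, NEFL 7.57 against 10.69 and LIN28B 9.80 against 10.42. VIM (11.98 against 11.62) and INA (7.02 against 6.56) were higher in SCL60. The part of these line genes in the member changes was not tested.

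For each tested member the 3 genes with the most similar pattern were found by Pearson correlation over the 14 group means, among 10463 other genes. The points share arrays, normalisation and controls, and the values are descriptions without a test. CCL2 was most like OLIG2 (r = 0.966), GADD45A (0.959) and NGDN (0.956). CXCL8 was most like RABGGTB (0.978), FHL2 (0.975) and SELENOK (0.974). CCL20 was most like TFPI2 (0.987), TUBB3 (0.984) and MMP10 (0.980), and IL11 was most like CPA4 (0.997), ETV4 (0.995) and ANXA3 (0.974). The tested members were left out of the genes searched, so these lists cannot show whether members resembled each other. Between tested members r ran from 0.573 (CXCL8 on ILMN_2184373 and IL11) to 0.895 (CCL2 and CXCL8 on the same probe).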

How the data were processed

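The authors deposited a table of non-normalized probe intensity on a linear scale, with a detection p-value for each probe and array per the file headers, and a second table of normalized intensity, which was used as an alternative. The scanner software and genome build are not given in the sources used here. Probe gene names came from the platform annotation. The intensities were background corrected by normexp (limma 3.58.1, R 4.3.3; offset 16, negative control levels taken from the detection p-values), quantile normalized and put on the log2 scale. Probes detected at a p-value under 0.01 on at least 3 arrays were kept (16016). All 55 arrays entered 1 linear model with a mean for each group, and limma's moderated test with an intensity trend was applied to its contrasts, adjusted over all tested probes by Benjamini-Hochberg, at 0.05. The fit was tested on simulated data. Where every array of the lower group was undetected, a fold is given as "at least", after raising each value to at least its array's lowest detected one.

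All member probes were reported, and from each further list the called genes with the largest difference were named. CCR2, CCR6, CXCR1, CXCR2 and the cluster neighbours were named after their values were seen. Members and lists were chosen with earlier results of these data known. Replicate numbers in the labels paired the arrays in all 5 SCL60 triptorelin comparisons and between the lines at 1 h, where every same-numbered pair deviated together (r over 0.1). They did not in HEK293 triptorelin at 1 and 24 h (r from 0.0567), nor between the lines at 0 and 24 h (r from 0.0703 and 0.0932). The main tests did not use this pairing, and the replicate block is given as an alternative. Alternatives were the background correction, the normalization, the filters, 1 probe per gene, blocks, single batches, other controls and single arrays left out. The number of arrays limits the precision.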

Additional observations from a re-analysis of the deposited data

Results flagged for a closer look

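In 143 groups of 4 arrays of a member probe, 1 array stood far from the other 3 in 10 (Dixon's test at the 95 percent level), where chance gives about 5 percent of groups. CXCL8 on ILMN_2184373 was high, at 6.46, on SCL60 control replicate 1 of 0 h, a detected value, where the other replicates read 5.85 to 5.94. CCL20 was 5.26 on SCL60 control replicate 2 of 0 h, against 4.94 to 4.95 on the others, all undetected. CXCL2 was 5.25 on SCL60 triptorelin replicate 1 of 8 h (others 4.53 to 4.64) and 4.75 on SCL60 control replicate 3 of 24 h (others 4.49 to 4.53). IL6 was 5.37 on SCL60 triptorelin replicate 1 of 24 h (others 4.47 to 4.56), and LIF was low, at 4.70, on SCL60 triptorelin replicate 2 of 2 h (others 4.90 to 4.91). SOCS3 was 4.86 on ILMN_1781001 on SCL60 control replicate 2 of 24 h (others 4.48 to 4.54). On ILMN_2156250 SOCS3 was 4.56 on SCL60 triptorelin replicate 2 of 0.5 h (others 4.43 to 4.45), 4.46 on SCL60 triptorelin replicate 3 of 1 h (others 4.67 to 4.69) and 5.67 on HEK293 control replicate 4 of 24 h (others 4.49 to 4.63). Apart from CXCL8, these values were undetected and carry no level.

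The response to triptorelin differed between the lines at 24 h, by a test of the difference of differences with limma, for CCL2 (3.35), IL11 (2.01), CXCL8 on ILMN_1666733 (1.63) and CCL20 (1.34). In SCL60 it was larger at 8 h than at 1 h for CCL20 (1.40), both CXCL8 probes (2.00 and 2.23) and IL11 (1.25), and smaller at 24 h than at 8 h for CXCL8 on ILMN_1666733 (-1.80). CCL20 and IL11 passed the filter on dim probes through SCL60 triptorelin arrays of 8 and 24 h alone. Their differences named here therefore follow from that filter.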

How the results depend on the processing

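No difference that passed, with all arrays or under an alternative, changed sign, while 140 of 2539 values did among differences that passed in neither. Between the lines at 0 h, for example, CXCL8 on ILMN_1666733 was 0.35 with all arrays and -0.42 within batch 2. Over single probes, 2460 values kept their side of the threshold, 34 no longer passed and 45 came to pass. The counts of called member probes that moved by over 1.5 times are as follows, and the cause was not tested except that single batches hold fewer arrays. Within batch 2 alone, with 1 SCL60 control of 1 h, the count was 0 at 1 h (3 in all arrays), 3 at 24 h (5), 0 for 2 h over 1 h of triptorelin (2), 0 between the lines at 1 h and at 24 h (1 each), 2 for the 24 h difference between lines (4), and 0 for 8 h less 1 h (4) and 24 h less 8 h (1). Within batch 1 it was 2 between the lines at 24 h and 2 for 24 h less 8 h. With replicates as a block it was 2 between the lines at 1 h and at 24 h, 3 for 1 h over 0.5 h of triptorelin (0), 1 for the 1 h difference between lines (0) and 2 for 24 h less 8 h, and it moved no other count by over 1.5 times. A chip block gave 2 between the lines at 24 h, 2 for 1 h over 0.5 h and 2 for 24 h less 8 h, a labelling batch block 1 for 1 h over 0.5 h, 1 for the 1 h difference between lines and 2 for 24 h less 8 h, and a hybridisation batch block 2 for 24 h less 8 h. For 24 h less 8 h, no background correction, the authors' values and cyclic loess gave 2 each, an offset of 50 gave 3, and 1 probe per gene and the fit to the groups compared alone gave 0. One probe per gene gave 1 for 2 h over 1 h, and the fit to the groups compared gave 1 for the 1 h difference between lines. Leaving out single arrays gave 1 to 3 at 1 h, 3 to 5 for the 24 h difference between lines, 4 to 5 for 8 h less 1 h and 1 to 2 for 24 h less 8 h, where SCL60 triptorelin replicates 2 and 4 of 8 h, triptorelin replicates 1 and 2 of 24 h and control replicate 1 of 8 h each gave 2. Signals near background limit CCL20, IL11, CXCL2 and the undetected members, whose fitted differences understate or cannot show a change.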

Other observations

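Among inflammatory mediators outside the chemokines, IL12A, a subunit of interleukin-12, rose by 1.34 on the log2 scale at 8 h of triptorelin in SCL60 cells (limma adjusted p = 3.36e-07, n = 4 each). GDF15, a distant member of the TGF-beta family, rose by 1.65 at 24 h (limma adjusted p = 2.52e-05). TNFSF9, the ligand of CD137, a receptor found on T cells, rose by 0.55 at 8 h (limma adjusted p = 0.0423). TNFSF9 was detected on 2 of 4 triptorelin arrays and on 0 of 4 controls, with means of 5.53 and 4.98, near background. NFKBIA, which encodes the inhibitor of NF-kappaB, rose by 0.94 at 2 h against the 1 h controls (limma adjusted p = 0.0358), and NFKB2, a subunit of the second NF-kappaB pathway, by 0.97 at 8 h and 0.84 at 24 h (limma adjusted p = 0.00131 and 0.0116).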
